A study of Mus musculus with 10 samples.

Results

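JUN regions between genes were examined in mouse cardiac fibroblasts, the cells that make scar matrix in the heart. They were chosen by the deposited annotation alone, as the rows of the c-JUN table classed as distal intergenic, and there were 23998 of them among 72990 listed JUN regions (32.9%). The c-JUN table pairs 2 libraries made by CUT&Tag, which sequences DNA cut and tagged by a transposase that an antibody holds at its target. The TGF-JUN library came from fibroblasts given TGF-β, a cytokine that activates them, and the SIHK1-JUN library (called siHK1 here) from fibroblasts in which an siRNA against hexokinase 1 (HK1), an enzyme of glycolysis, preceded TGF-β. Both groups thus carry TGF-β, neither is untreated, and the labels name no control siRNA for the TGF-JUN library. The study's methods put its mouse strains on a C57BL/6 J background, this assay had 1 biological repeat, and the age and sex of the animals behind these primary cells are not given in the sources used here. The series held 10 libraries with 1 library per condition and antibody, so every difference below is between 2 libraries and not between conditions, and no replicate error or test can be given. No RNA or protein was measured in these libraries, so the loss of HK1 was not checked. Intervals in the text are exact 95% intervals, they cover counting error only, since PCR can copy a molecule several times and a region is no replicate.

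c-JUN is a subunit of AP-1, a dimeric transcription factor of the JUN, FOS and related families that binds the letters TGACTCA, which read TGAGTCA on the opposite strand. Sequence far from genes can act as enhancers, stretches that bind transcription factors and raise the output of genes at a distance, and AP-1 is known to bind many of them in fibroblasts. TGF-β receptors activate SMAD2 and SMAD3, which form complexes with SMAD4 and bind short GTCT or AGAC letters. The palindrome GTCTAGAC joins these in 1 run.

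Central 200 bp windows of 4 regions with high c-JUN reads and no region of another antibody are shown first. They are the 4 of the 10 highest such regions that hold the AP-1 letters in this window, and the windows of the other 6 hold none. Sequences are the plus strand of GRCm38 in the RefSeq release of that assembly, 5′ to 3′, and capitals mark TGACTCA or TGAGTCA. A match is a description of letters and not a measured site.
Noct, chr3:51195395-51195594: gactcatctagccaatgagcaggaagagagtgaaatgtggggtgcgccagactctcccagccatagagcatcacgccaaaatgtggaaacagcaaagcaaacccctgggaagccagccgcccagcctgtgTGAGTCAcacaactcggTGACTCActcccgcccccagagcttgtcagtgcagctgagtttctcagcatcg
Sema4f, chr6:82909263-82909462: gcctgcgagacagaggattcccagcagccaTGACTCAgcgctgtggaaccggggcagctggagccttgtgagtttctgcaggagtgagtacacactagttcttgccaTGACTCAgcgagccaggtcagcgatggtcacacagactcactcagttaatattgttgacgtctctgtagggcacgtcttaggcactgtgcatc
Gm11217, chr4:64324410-64324609: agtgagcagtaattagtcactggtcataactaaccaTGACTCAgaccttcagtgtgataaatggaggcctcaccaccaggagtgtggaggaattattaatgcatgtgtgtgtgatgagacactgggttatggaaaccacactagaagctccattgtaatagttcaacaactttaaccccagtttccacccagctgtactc
Mir21c, chr8:128164963-128165162: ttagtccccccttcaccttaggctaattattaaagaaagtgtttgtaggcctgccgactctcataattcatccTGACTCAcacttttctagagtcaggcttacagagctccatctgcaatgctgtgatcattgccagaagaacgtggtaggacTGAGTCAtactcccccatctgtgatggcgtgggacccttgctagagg

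The next windows belong to 4 of the 8 regions with the lowest siHK1 to TGF ratios, and they are shown because the AP-1 letters were present in regions where siHK1 reads were few. Capitals mark the same letters.
A730004F24Rik, chr1:186457216-186457415: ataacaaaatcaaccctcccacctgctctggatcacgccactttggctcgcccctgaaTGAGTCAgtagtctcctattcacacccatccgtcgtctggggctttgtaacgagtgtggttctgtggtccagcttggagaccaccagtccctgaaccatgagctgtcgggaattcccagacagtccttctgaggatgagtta
Mvb12b, chr2:33906473-33906672: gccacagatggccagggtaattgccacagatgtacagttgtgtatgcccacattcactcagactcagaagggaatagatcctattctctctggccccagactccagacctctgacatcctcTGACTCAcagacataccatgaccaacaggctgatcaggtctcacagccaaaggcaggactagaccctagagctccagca
4930572O13Rik, chr14:25195037-25195236: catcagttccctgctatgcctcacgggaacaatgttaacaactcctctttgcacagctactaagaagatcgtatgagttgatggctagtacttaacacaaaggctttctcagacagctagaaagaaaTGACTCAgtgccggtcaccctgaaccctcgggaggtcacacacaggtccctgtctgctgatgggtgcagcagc
Cops8, chr1:90663214-90663413: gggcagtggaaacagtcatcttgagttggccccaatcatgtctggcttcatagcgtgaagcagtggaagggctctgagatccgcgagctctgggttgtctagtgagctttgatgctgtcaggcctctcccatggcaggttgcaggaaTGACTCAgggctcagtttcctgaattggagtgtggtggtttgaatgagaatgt

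From the 8 regions with the highest ratios, the 2 that hold the AP-1 letters in this window are given for comparison. Those letters are again in capitals.
Sema3e, chr5:13987298-13987497: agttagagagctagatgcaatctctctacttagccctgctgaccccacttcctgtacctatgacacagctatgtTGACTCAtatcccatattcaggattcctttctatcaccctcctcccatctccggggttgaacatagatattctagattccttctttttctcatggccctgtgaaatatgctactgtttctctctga
Efna5, chr17:62570205-62570404: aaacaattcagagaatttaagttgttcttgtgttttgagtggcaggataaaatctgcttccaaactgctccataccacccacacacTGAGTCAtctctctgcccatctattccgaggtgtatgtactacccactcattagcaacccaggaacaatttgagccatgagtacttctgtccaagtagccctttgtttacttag

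Finally, 3 windows hold the SMAD palindrome, and they are shown because this palindrome was more frequent where siHK1 reads were lower. Capitals mark GTCTAGAC as well as the AP-1 letters. The window near Tmem232 holds both kinds of letters several times in a tandem array, and the windows near Golga7 and Ctla4 hold the palindrome alone.
Tmem232, chr17:65193461-65193660: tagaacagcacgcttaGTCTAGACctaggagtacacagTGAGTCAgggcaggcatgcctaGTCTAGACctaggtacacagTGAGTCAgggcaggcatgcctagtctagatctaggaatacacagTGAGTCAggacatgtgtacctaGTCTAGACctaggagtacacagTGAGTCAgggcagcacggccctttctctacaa
Golga7, chr8:23301461-23301660: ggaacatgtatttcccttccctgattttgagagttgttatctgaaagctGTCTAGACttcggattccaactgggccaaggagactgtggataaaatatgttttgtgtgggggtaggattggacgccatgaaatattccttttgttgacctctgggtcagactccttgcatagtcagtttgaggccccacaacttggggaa
Ctla4, chr1:60851067-60851266: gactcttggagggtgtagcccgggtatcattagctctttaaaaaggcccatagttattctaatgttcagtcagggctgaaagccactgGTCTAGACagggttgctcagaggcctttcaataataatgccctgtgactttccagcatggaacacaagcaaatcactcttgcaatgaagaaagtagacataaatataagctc

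The regions between genes covered 12.1 Mb, with a median width of 436 bp and quartiles of 294 and 643 bp. In TGF they held 1409531 reads, or 117 per kb, and in siHK1 756525 reads, or 62.7 per kb. These were 33.4% and 33.3% of the reads in all listed JUN regions, which totalled 4215447 and 2271336. The share of c-JUN reads that fell between genes was therefore nearly the same in both libraries. The depth of the whole libraries is unknown, since only reads inside listed regions are given. Reads were scaled so that all listed JUN regions summed to the same total in both libraries, which multiplied TGF reads by 0.769 and siHK1 reads by 1.43, and a loss common to every region cannot be seen after such scaling. The median region had 33 reads in TGF and 17 in siHK1.

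Peaks, as marked by the authors, were found in both libraries at 12141 regions (50.6%), in TGF alone at 8955 (37.3%) and in siHK1 alone at 2882, with 20 regions marked in neither. Introns, the other large class far from start sites, had peaks in both libraries at 48.2% (47.6 to 48.8), promoters at 50.2% and all JUN regions at 49.7%. Peaks in both libraries went with more reads: the median sum of scaled reads was 95.6 for regions marked in both, 26.0 for TGF alone and 21.8 for siHK1 alone. The TGF library, which had more reads in the listed regions, also had more peaks of its own, and how far the one follows from the other was not tested.

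The class itself sets a distance of more than 3 kb to the deposited start site. The deposited distance to the start of the assigned gene had a median of 40.5 kb, with quartiles of 16.3 and 102 kb and a maximum of 2.01 Mb, and 6134 regions (25.6%) were more than 100 kb away. They were assigned to 7657 genes, and 58.0% lay upstream of their gene. Measured to the nearest start of any GENCODE transcript, non-coding ones included, the median was 18.5 kb, and 1359 regions (5.66%) lay within 3 kb of one. The class was checked against GENCODE vM21 on GRCm38: 68 region midpoints lay inside an annotated gene, 4 of them in a protein-coding gene. Chromosome 13 had the highest density at 12.2 regions per Mb, and the X chromosome had 2.77 per Mb, below each of the 19 autosomes, of which the lowest was chromosome 14 at 7.58 per Mb.

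Reads at these regions in siHK1 and TGF were compared to ask where c-JUN was lower or higher in the library given the siRNA against HK1. At least 20 scaled reads over both libraries were present at 19384 regions (80.8%). Of these, 1369 (7.06%, 6.71 to 7.43) were at least 2-fold lower in siHK1 and 855 (4.41%, 4.13 to 4.71) at least 2-fold higher. Among all JUN regions with as many reads the background was 6.48% lower and 4.33% higher, so regions between genes were close to the whole list. Introns gave 7.08% lower and 4.63% higher, and promoters within 3 kb gave 4.86% (4.52 to 5.21) and 3.83%. The median log2 ratio over all regions between genes was -0.05, with quartiles of -0.53 and 0.36, beside -0.04 over all JUN regions. Which direction had more regions turned on the pseudocount: with 5 reads added in place of 0.5, 386 were lower and 773 higher. Reads were added before scaling, so they counted for more in siHK1 (multiplied by 1.43) than in TGF (by 0.769). The part of this in the turn was not tested. With the deposited normalized log2 values 1731 were lower and 578 higher.

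**Figure D1:**
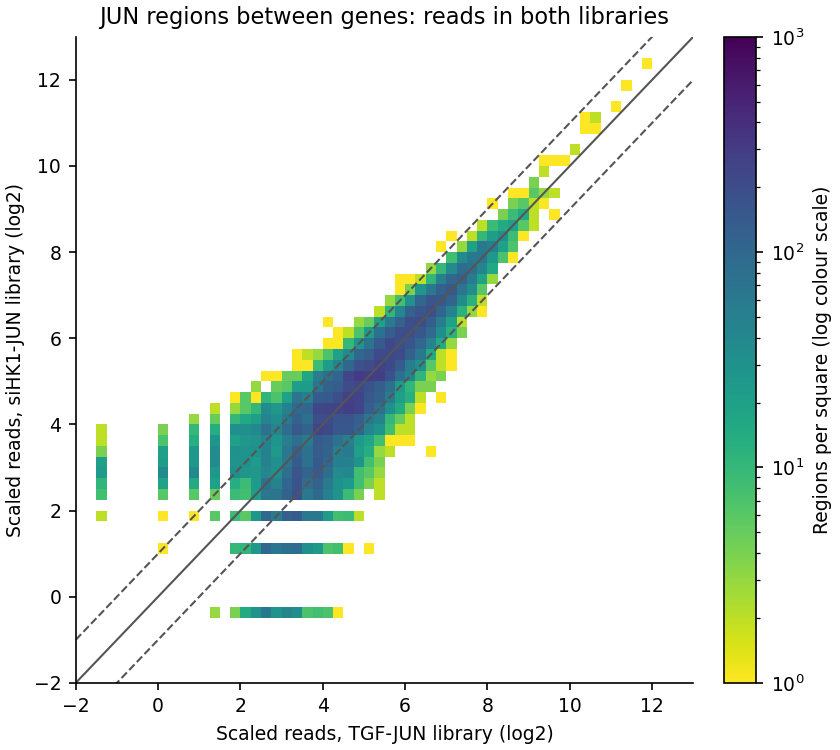
Scaled reads of the 23998 JUN regions between genes in the TGF-JUN library (x axis, log2) and the siHK1-JUN library (y axis, log2), with the number of regions per square as colour on a log scale; the solid line marks equal reads and the dashed lines 2-fold. The cloud narrows around the line of equal reads as reads increase, and 1369 and 855 regions with at least 20 scaled reads lie past 2-fold below and above it.

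Most regions past 2-fold had few reads. Divided into 5 groups of near equal size by scaled reads (group 1 the lowest), the share of regions 2-fold lower was 18.9% (14.0 to 24.7) among the 222 regions of group 1 that reached 20 scaled reads, then 14.4%, 8.33%, 3.90% and, in group 5, 1.08% (0.810 to 1.42). The share 2-fold higher went the same way, from 12.2% to 0.375%. In groups 2, 3 and 4, promoters were lower less often than regions between genes at like reads, in group 3 at 4.78% (4.12 to 5.52) against 8.33% (7.56 to 9.15) and in group 4 at 1.87% (1.47 to 2.33) against 3.90% (3.37 to 4.49). In groups 1 and 5 these intervals overlapped. Promoters were also higher less often in group 3, at 3.85% (3.26 to 4.52) against 5.23% (4.61 to 5.89), and in the other 4 groups the intervals of the higher shares overlapped.

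Requiring the whole exact interval of the ratio to lie past 2-fold left 64 regions lower and 27 higher. These were 0.330% and 0.139% of the regions with at least 20 scaled reads, beside 0.27% and 0.117% among all JUN regions. Introns gave 69 lower and 24 higher, and promoters 13 and 15. This stricter count was chosen after the data were seen. The region with the most reads among the lower ones lay 106 kb upstream of Gm32123 and had 181 reads in TGF and 31 in siHK1, a log2 ratio of -1.63 (-2.25 to -1.10). A region 172 kb upstream of Bmper, which encodes a secreted regulator of BMP signalling, had 150 and 26 reads, a log2 ratio of -1.61. A region 29.9 kb from Fndc1 had 147 and 17 reads, a log2 ratio of -2.18, and held the AP-1 letters. Its window was 60.5% soft-masked repeat sequence, against 26% near Gm32123 and 0% near Bmper. The other genes were of many kinds, and those named next were picked after their values were seen. Col5a1, a collagen V chain, had an upstream region with 51 and 4 reads. Ltbp4, which binds latent TGF-β, had a region downstream of its start with 83 and 11. Pappa, a protease that cleaves IGF-binding proteins, had 2 of the 64, with 54 and 3 reads and with 34 and 2. The windows of these 2 were 87% and 0% soft-masked. The higher set held only 2 regions with over 100 reads in siHK1. They were near Gdf3, a TGF-β family ligand, with 183 reads in TGF and 244 in siHK1 (log2 ratio 1.31), and near Ampd3, an AMP deaminase, with 81 and 123 (log2 ratio 1.49). The window near Gdf3 was 100% soft-masked repeat sequence and its region overlapped regions of 2 other antibodies, while the one near Ampd3 held no masked sequence and overlapped none.

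The 8 lowest ratios among regions with at least 50 scaled reads were chosen by rule, and their ratios are given as a description. The lowest was 22.8 kb downstream of the start of Smad7, an inhibitory SMAD that TGF-β induces and that limits its signal, at chr18:75397760-75398662. It had 123 reads in TGF (102 to 147) and 7 in siHK1 (2.81 to 14.4), a log2 ratio of -3.15 (-4.59 to -2.16). The peak was marked in TGF alone. Another Smad7 region further downstream, at chr18:75404954-75406031, had 182 and 107 reads, a log2 ratio of 0.13 (-0.23 to 0.48), and was also listed for 2 other antibodies. The first of these 2 regions was picked for its low ratio, so the gap between their intervals is a description and no test.

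The other 7 lowest regions had between 56 and 94 reads in TGF and between 5 and 10 in siHK1, with log2 ratios from -2.57 to -2.21. They were assigned to Gm34184 (93 and 8 reads), A730004F24Rik (56 and 5), Mvb12b (94 and 10), 4930572O13Rik (75 and 8), Cops8 (65 and 7), Golga7 (56 and 6) and Psg22 (64 and 7). Cops8 is a subunit of the COP9 signalosome and Mvb12b of the ESCRT-I complex. All 8 had a peak in TGF alone. In the central 200 bp, 4 of the 8 held the AP-1 letters, and 2 of the 8, at Smad7 and Golga7, held the SMAD palindrome. Each central 50 bp occurred once in the chromosomes of GRCm38.

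The 8 highest ratios lay in regions with few reads in TGF. The region near Hacd4 had 12 reads in TGF (6.20 to 21.0) and 33 in siHK1 (22.7 to 46.3), a log2 ratio of 2.31 (1.36 to 3.44), and the one near Sema3e, a secreted guidance factor, had 22 and 53, a log2 ratio of 2.14 (1.42 to 2.95). The others were near 6820426E19Rik (18 and 36 reads), Npsr1 (16 and 32), Cdk15 (16 and 32), Efna5 (15 and 27), Tmem135 (22 and 39) and Cdh13 (26 and 46), with log2 ratios from 1.70 to 1.87. Cdh13 encodes T-cadherin and Efna5 an ephrin ligand. Peaks were marked in both libraries at 4 of the 8 and in siHK1 alone at 4. In the central 200 bp no palindrome was present, and 2 of the 8 held the AP-1 letters.

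**Figure D2:**
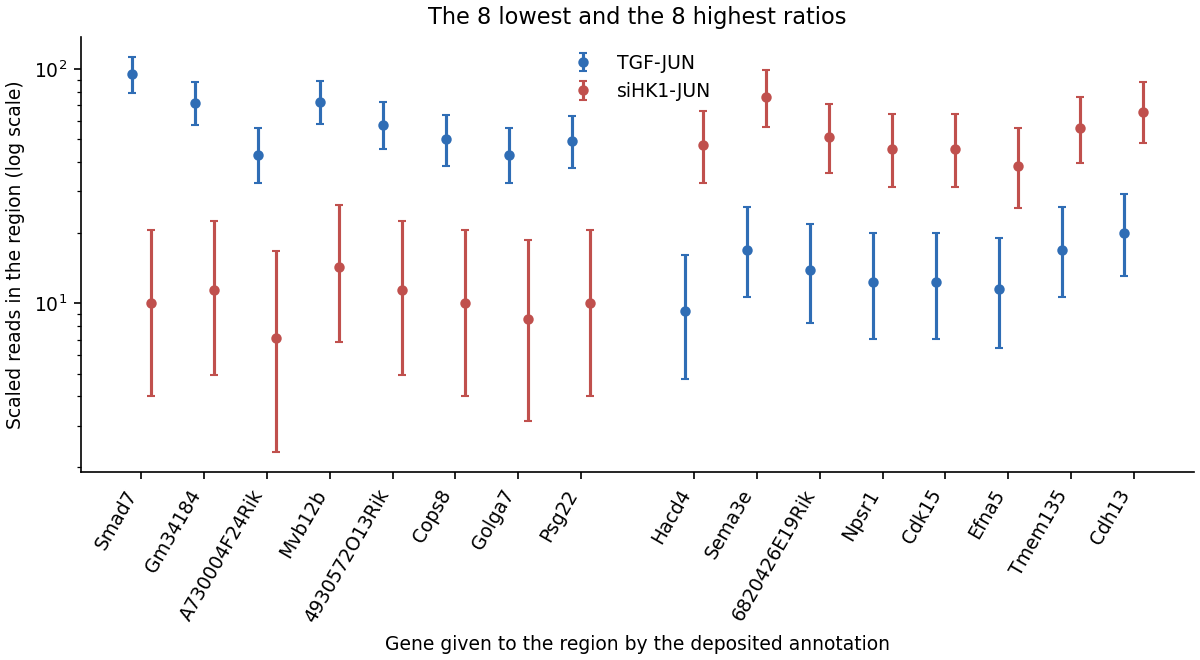
Scaled reads (y axis, log scale) in the TGF-JUN and siHK1-JUN libraries for the 8 regions with the lowest and the 8 with the highest ratio among those with at least 50 scaled reads, named by assigned gene (x axis); bars are exact Poisson 95% intervals of 1 library each. The Smad7 region stands furthest apart, with 123 unscaled reads against 7. The regions were picked for extreme ratios, so the gap between the 2 libraries' bars in all 16 is a description.

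The AP-1 letters were present in the central 200 bp of 6839 regions between genes (28.5%, 27.9 to 29.1). In windows of the same length 5 kb to either side the share was 3.72%. Introns gave 26.6% (26.0 to 27.1) and promoters 14.4% (13.9 to 14.9), so regions between genes held the letters most often among these 3 classes. Along the sequence, the letters occurred at 80.8 to 83.3 per 1000 regions in each 50 bp within 100 bp of the middle, then declined to about the level of the flanks by 500 bp. Within the central 200 bp they were spread evenly: their median distance from the middle was 49 bp. The authors' tables give no summit, so a finer position was not analysed here. Most regions with the letters held them once (6079), 704 held them at 2 places and 56 at 3 or more.

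**Figure D3:**
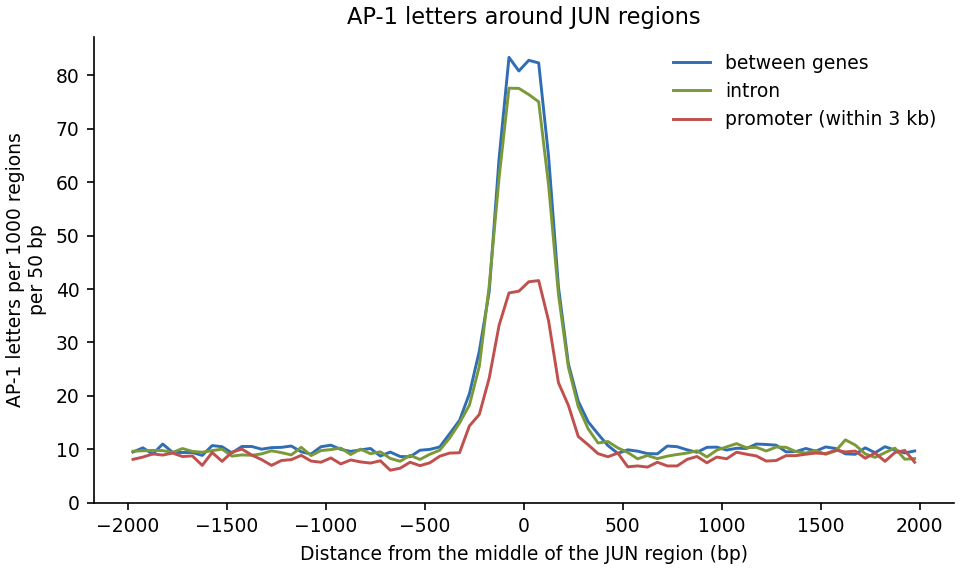
Number of AP-1 letters (TGACTCA or TGAGTCA) per 1000 regions in steps of 50 bp (y axis) against distance from the middle of the JUN region in bp (x axis), for regions between genes, in introns and within 3 kb of a start site. Regions between genes reach 83.3 beside the middle, intron regions run slightly lower, and promoters reach 41.6.

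The bases next to the AP-1 letters also differed between the regions and their flanks. Read in the TGACTCA direction, 7.76% of the sites in the regions had a T before the letters, against 17.0% of those 5 kb away, and 10.5% had an A after them, against 21.6%. Sites with A before and T after the letters made up 10.6% of those in the regions (9.91 to 11.3) and 5.70% of those in the flanks (4.68 to 6.87). Introns gave 9.93% and 4.90%. At promoters the shares were 6.55% (5.68 to 7.52) and 5.16% (4.02 to 6.51), with intervals that overlapped. 

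AP-1 letters were more frequent where c-JUN reads were higher. In the 5 groups by scaled reads the share was 14.7% in group 1, 1192 of 4764 regions in group 2, then 31.0%, 33.4% and 38.5% (37.1 to 39.9). Promoters went from 7.26% to 22.8% over the same cuts, below regions between genes in each of the 5 groups. Regions with a peak in both libraries held the letters in 35.2%, those with a peak in TGF alone in 23.4% and those with a peak in siHK1 alone in 16.3%. Regions within 2-fold held them in 32.7% (32.0 to 33.4), regions 2-fold lower in 28.1% (25.7 to 30.5) and regions 2-fold higher in 22.2% (19.5 to 25.2). The reads of these groups also differed, with median scaled reads of 70.2, 35.5 and 34.3, and the part of this difference in the shares was not tested.

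**Figure D4:**
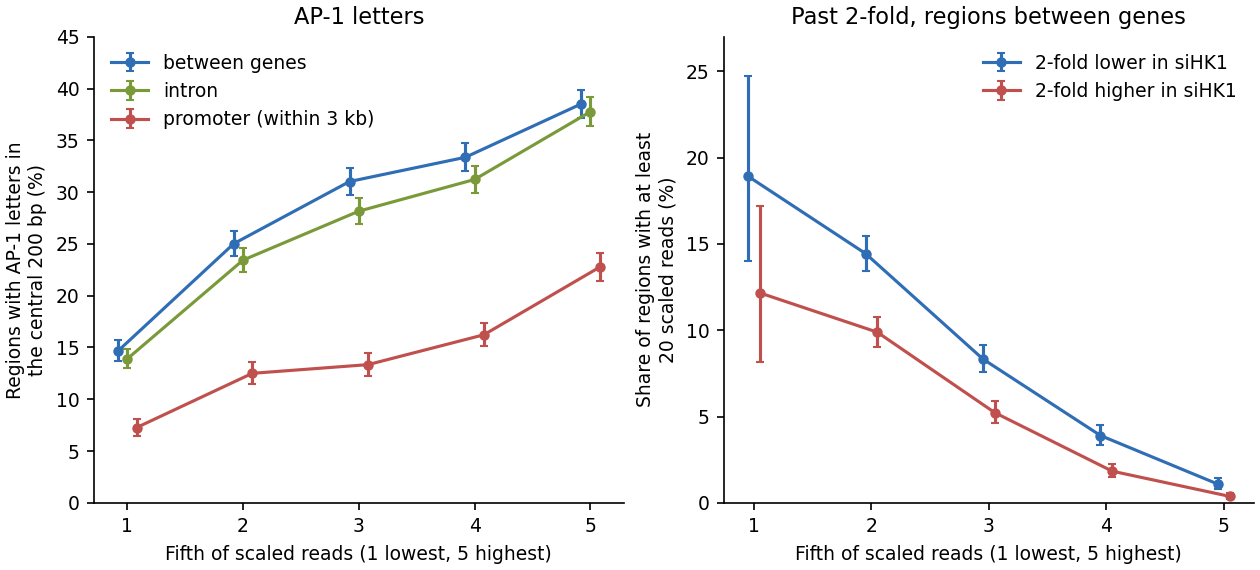
Left, share of regions with the AP-1 letters in the central 200 bp (y axis, %) by group of scaled reads (x axis, cuts set on regions between genes) for 3 classes. Right, share of regions between genes 2-fold lower or higher in siHK1 among those with at least 20 scaled reads; bars are exact 95% intervals. AP-1 shares climb from 14.7% to 38.5% between genes while the shares past 2-fold shrink to 1.08% and 0.375%.

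Other motifs were searched on both strands in the same windows. CATTCCA, bound by TEAD factors of the Hippo pathway, was present in 5.62% against 3.28% of the flanking windows, and CAGCTG, an E-box, in 12.9% against 8.38%. TGTGGTT (RUNX) was present in 5.43% against 4.85%, and TGACGTCA, the CRE form bound by ATF and CREB factors, in 0.392% against 0.123%. TGGAAA, the NFAT core, was at 18.9%, below the 19.8% of the flanks. CCGCCC, a GC box, was at 3.95% between genes and 27.3% at promoters. TEAD letters were about as frequent with AP-1 letters in the same window (5.35%) as without (5.72%). These searches cover single strings and miss other forms of each motif.

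The SMAD palindrome was rare but unevenly placed. It was present in 0.450% of the regions and 0.173% of flanking windows. Among regions 2-fold lower in siHK1 it was present in 19 of 1369 (1.39%, 0.838 to 2.16), among those within 2-fold in 71 of 17160 (0.414%, 0.323 to 0.522) and among those 2-fold higher in 2 of 855 (0.234%, 0.0283 to 0.842). Introns, which share no region with this set, gave 1.29% (0.779 to 2.01), 0.316% (0.240 to 0.409) and 0.104%. At promoters the intervals overlapped, at 0.678% (0.221 to 1.58) and 0.296% (0.213 to 0.402) for lower and within 2-fold. Reads of the lower and higher regions were alike, with medians of 35.5 and 34.3 scaled reads. In groups 2 and 3 by scaled reads, which hold most of the lower regions, the palindrome was in 7 of 688 and 7 of 400 lower regions against 10 of 3641 and 9 of 4149 within 2-fold, and in groups 4 and 5 in 2 of 187 and 2 of 52 against 26 of 4525 and 26 of 4729. The lower share was above the share within 2-fold in each of these 4 groups, and the intervals of the 2 shares overlapped in groups 2, 4 and 5 and not in group 3. Of the 64 regions whose whole interval was lower, 4 held it (6.25%), as did 4 of 69 in introns, 0 of 13 at promoters and 9 of 159 among all JUN regions (5.66%). This motif was singled out after its values were seen.

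Among the 19 lower regions with the palindrome, TGF reads ran from 22 to 184 and siHK1 reads from 1 to 38. The most reads were near Tmem232, with 184 in TGF and 38 in siHK1, a log2 ratio of -1.37 (-1.93 to -0.87). Ctla4 had 125 and 33 (log2 ratio -1.01), Syt6 79 and 19 (-1.14), and E230016M11Rik 47 and 6 (-1.98). The region near Ctla4 was the only one of the 19 with a peak in both libraries. SMAD3 regions overlapped 2 of the 19, near Syt6 with 2 SMAD3 reads in TGF and 12 in siHK1, and near BC006965 with 4 and 8. SMAD3 regions overlapped 11.2% of all 1369 lower regions, 17.2% of those within 2-fold and 7.60% of the higher ones.

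Regions between genes were compared with the tables of the other antibodies by overlap of at least 1 bp. SMAD3 regions overlapped 3606 of the 23998, and the 3650 SMAD3 regions involved were 6.23% of the SMAD3 list. NFATC2, a calcium-regulated factor, overlapped 3133 (13.1%), or 4.61% of its list. Regions of H3K9lc, lactylation of histone H3 at lysine 9, overlapped 1891 (7.88%), or 2.52% of that list. The overlapping regions of these antibodies held few reads. Their medians in TGF and siHK1 were 5 and 7 for SMAD3 (4 and 3 over its whole list), 7 and 4 for NFATC2 (3 and 2), and 21 and 11 for H3K9lc (16 and 8). Regions between genes that overlapped SMAD3 had a median of 103 scaled c-JUN reads, against 45.2 for those that did not. Introns overlapped SMAD3, NFATC2 and H3K9lc regions at 15.4%, 12.8% and 4.83%. Promoters overlapped SMAD3 and NFATC2 regions more often than regions between genes did, at 26.1% and 22.1%. For H3K9lc, promoters at 1046 of 18689 (5.27% to 5.94%) lay below regions between genes and above introns. The 17923 regions without any of the 3 held the AP-1 letters in 30.5%, those with 1 in 26.5%, those with 2 in 18.9% and the 651 with all 3 in 5.07% (3.51 to 7.05). Repeats moved with this: at least 50% of the central window was soft-masked repeat sequence in 8.35%, 12.4%, 25.5% and 57.8% of these groups.

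**Figure D5:**
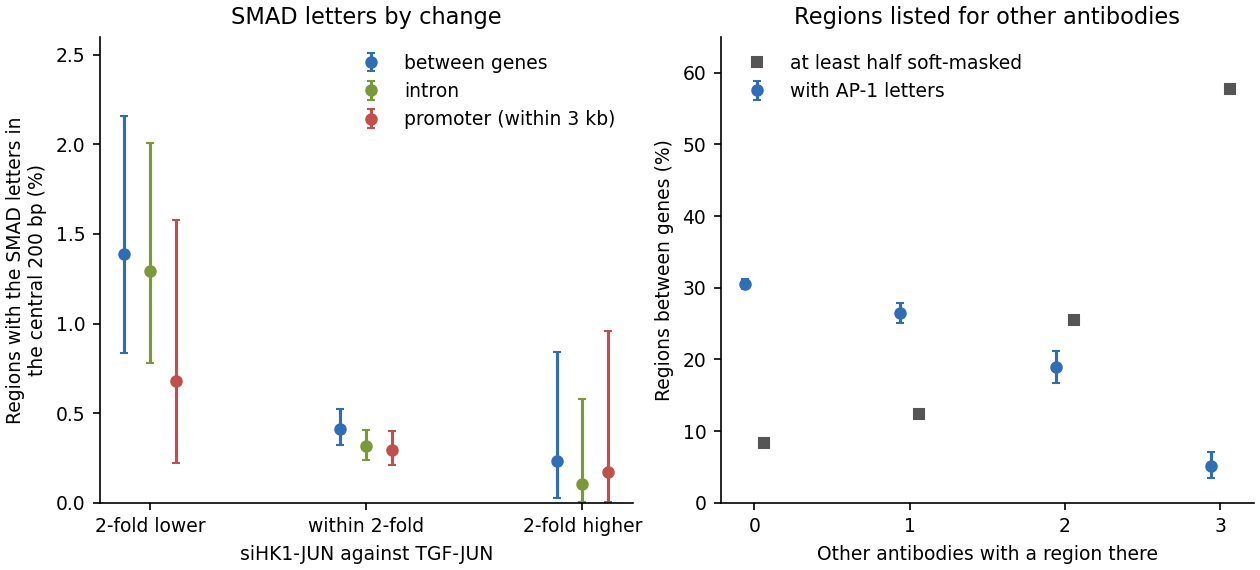
Left, share of regions with GTCTAGAC in the central 200 bp (y axis, %) for regions 2-fold lower, within 2-fold and 2-fold higher in siHK1-JUN, in 3 classes. Right, share of regions between genes with AP-1 letters (circles) and with at least 50% of the window soft-masked (squares) by the number of other antibodies with a region there; bars are exact 95% intervals. The palindrome is at 1.39% of lower regions between genes against 0.414% within 2-fold, and AP-1 letters drop from 30.5% to 5.07% as masked sequence increases.

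The most heavily read regions were mostly of this repeat kind. The 10 with the highest scaled reads had between 1373 and 5277 reads in TGF and between 1008 and 3754 in siHK1. None held the AP-1 letters in the central 200 bp. Soft-masked sequence made up 81.5% to 100% of the window in 8 of them, and 9.5% and 11.5% in those near Lrrc4c and 1700019M22Rik. The highest, 124 kb from Fgf14 at chr14:124801553-124802244, had 5277 and 3754 JUN reads, and its SMAD3, NFATC2 and H3K9lc regions had 4999, 5058 and 13272 reads in the TGF libraries. Its central 50 bp occurred 1083 times in the chromosomes. The central 50 bp near Mrgprd, Gm45871 and A630089N07Rik occurred 1092, 1069 and 1069 times. The count was 65 near 9230019H11Rik, 25 near Rab10os, 9 near Tmem196, 2 near 1700019M22Rik, and 1 near Gm14496 and Lrrc4c. The region near 1700019M22Rik matched the mitochondrial genome in 82.5% of its 30 bp words, and it had 2183 and 1328 reads. Of the 10, 9 overlapped regions of all 3 other antibodies and the region near Lrrc4c overlapped NFATC2 alone. All 10 log2 ratios were above 0, from 0.18 to 0.68. With the deposited normalized values they ran from 0.30 to 0.79, and with no scaling from -0.72 to -0.21.

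High reads were also seen without any region of another antibody. The central 50 bp of the 10 highest of these occurred once each, and 0% to 37% of the window was soft-masked. The 10, a set added after the values were seen, had between 372 and 823 reads in TGF and between 204 and 433 in siHK1. The first was 4.81 kb from AI839979 with 823 and 433 reads, a log2 ratio of -0.03 (-0.21 to 0.14). Noct, which encodes nocturnin, had 616 and 323 reads 28.5 kb upstream (-0.04). Arntl, a core gene of the circadian clock, had 437 and 236 reads 20.8 kb upstream (0.00). Sema4f, a semaphorin, had 456 and 239 (-0.04). Nectin1, a cell adhesion molecule, had the lowest ratio of the 10, with 549 and 204 reads, a log2 ratio of -0.53 (-0.78 to -0.30). Near Gsap (390 and 274 reads) and Gm11217 (372 and 270) the log2 ratios were 0.38 (0.15 to 0.61) and 0.43 (0.20 to 0.66). All 10 lay within 2-fold.

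Neighbouring regions often formed clusters. With gaps of at most 12.5 kb, 15043 regions (62.7%) lay in 5146 clusters, and 585 clusters held at least 5 regions. The largest cluster had 22 regions over 110 kb between Col5a1 and Rxra, a retinoid X receptor gene, with 2333 reads in TGF and 1104 in siHK1, a log2 ratio of -0.19 (-0.29 to -0.08). AP-1 letters were present in 8 of the 22. The next had 21 regions over 100 kb near Hrh1, a histamine receptor gene, and none held the letters in the central 200 bp. It had 664 and 402 reads, a log2 ratio of 0.17 (-0.01 to 0.35). The clusters near C330024C12Rik (18 regions, 2138 and 1091 reads), Bcas1 (17 regions, 1510 and 811 reads) and Tarbp1 (16 regions, 1884 and 1103 reads) had log2 ratios of -0.08, -0.00 and 0.12. These are ratios of reads summed over a cluster, in which the most heavily read regions weigh most, and 4 of the 5 clusters held single regions past 2-fold.

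Genes of the TGF-β response were then read through lists chosen with earlier results of these data known. Each gene is given by its region with the highest scaled reads, as reads in TGF and in siHK1, where that region had at least 100 scaled reads. The counts of each list stand beside the 7.06% lower and 4.41% higher of all regions between genes with enough reads. For the inhibitors of the TGF-β pathway, 9 of 10 genes had 45 regions between genes, of which 39 had enough reads, with 4 lower (10.3%, against 7.06% of all) and 0 higher. Pmepa1, a membrane protein that TGF-β induces and that restrains SMAD signalling, had 15 regions. Its highest had 417 and 152 reads, a log2 ratio of -0.56 (-0.84 to -0.29), and 3 others 57.6 to 62.2 kb upstream were 2-fold lower, with 27 and 4, 34 and 5, and 52 and 8 reads. Smad6, the other inhibitory SMAD, had 194 and 115, Smurf2, a ubiquitin ligase for receptors and SMADs, 135 and 79, Ski 76 and 34, and Bambi, a pseudoreceptor, 163 and 72. The Smurf2 window was 100% soft-masked repeat sequence, and its region overlapped regions of all 3 other antibodies. The Bambi window was 56% masked, the Smad6 window 7% and the Ski window 0%. Among ligands, receptors and SMADs, 31 regions gave 1 lower and 2 higher of 24 with enough reads. Tgfbr3, a co-receptor, had 470 and 246, Smad3 182 and 111, Smad2 93 and 45, and Acvrl1 58 and 43 reads.

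AP-1 genes themselves had 14 regions, 12 with enough reads, and 0 were lower or higher by 2-fold. Fosb had 360 and 179 reads 6.44 kb upstream, with the AP-1 letters in its window. Jun had a single region 136 kb upstream with 140 and 50 reads, a log2 ratio of -0.58 (-1.09 to -0.12), and Fos had 132 and 76. The median log2 ratio of this list was -0.06, beside -0.05 over all regions between genes.

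Collagen genes, which encode fibrillar, basement membrane and other matrix collagens, had 84 regions, with 6 lower (8.22%) and 2 higher (2.74%) of 73 with enough reads, close to the 7.06% and 4.41% of all. The median log2 ratio of all 84 was -0.15. Col1a1 had the highest, with 590 and 278 reads 7.03 kb upstream, a log2 ratio of -0.19 (-0.40 to 0.01). Col6a3 had 280 and 135, Col5a1 213 and 135, Col5a2 199 and 122, and Col11a1 171 and 101. Col3a1 had 156 and 87, Col1a2 141 and 69, Col8a1 72 and 37, and Col4a1 72 and 33. The highest region of each of these genes was within 2-fold.

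Matricellular genes, whose proteins signal from the matrix, had 48 regions, with 5 lower (13.5%, against 7.06% of all) and 1 higher of 37. Of the 5 lower, 4 were near Postn, the myofibroblast marker periostin, and 3 of these lay 114 to 122 kb downstream, with 31 and 3, 24 and 6, and 48 and 10 reads. The highest Postn region had 251 and 147 reads, a log2 ratio of 0.12 (-0.18 to 0.42). Thbs2 had 294 and 146, Sparc 172 and 87, Ccn1 146 and 76, Cilp 109 and 32, and Spp1, osteopontin, 102 and 88. Cilp and Spp1 differed in direction, with log2 ratios of -0.86 (-1.49 to -0.30) and 0.68 (0.25 to 1.10).

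Contractile genes had 21 regions, with 3 lower and 0 higher of 20, beside 7.06% and 4.41% of all, and all 3 lower ones were near Actn1, an α-actinin, between 5.30 and 10.9 kb downstream of its start (22 and 5, 61 and 15, and 41 and 10 reads). Its highest region had 302 and 140. Myh9, non-muscle myosin, had 135 and 39 reads, a log2 ratio of -0.89 (-1.45 to -0.38), and Tpm2, a tropomyosin, 71 and 73, a log2 ratio of 0.93 (0.44 to 1.42). Matrix remodelling genes had 27 regions, with 2 lower and 0 higher of 19. A lower one was near Plau, urokinase (26 and 4). The highest regions of Adamts1, a metalloproteinase (160 and 102), and Plau (140 and 81) had log2 ratios of 0.25 and 0.11. For Plau a 2-fold lower region thus stood beside a larger one within 2-fold.

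Fibroblast transcription factors had 94 regions, with 7 lower (8.97%) and 3 higher (3.85%) of 78, close to the 7.06% and 4.41% of all. Klf4, a zinc finger factor, had 38 regions, with 256 and 143 reads at the highest. Its 3 lower ones lay 472 to 519 kb upstream, with 63 and 11, 38 and 6, and 90 and 23 reads. The 3 higher regions of the list were 1 near Klf4, with 25 and 28 reads (log2 ratio 1.05), and 2 near Tcf21, with 10 and 13 and with 20 and 24 reads. Meox1, a homeobox factor of activated cardiac fibroblasts, had 2 lower regions of 5 with enough reads, 19.9 and 26.1 kb downstream, with 111 and 22 (log2 ratio -1.42, -2.17 to -0.77) and 43 and 7 reads, and its highest had 109 and 50. Gata4 had 240 and 142, Twist1 178 and 112, Runx1 159 and 79, Nr4a1 103 and 55, and Tcf21 78 and 37.

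Growth factor and cytokine genes had 52 regions, with 4 lower (9.30%) and 1 higher (2.33%) of 43, beside 7.06% and 4.41% of all. Lif, an IL-6 family cytokine, had 518 and 255, and Cxcl12, a chemokine, 410 and 236. Hbegf had 292 and 138, Vegfa 172 and 97 with the letters at 2 places, Il6 86 and 68, and Areg 64 and 44. Hippo targets had 6 regions, with 0 lower and 0 higher of 3, and Amotl2 had 166 and 72 and Ankrd1 118 and 74 reads. Of 6 genes named by the study, 3 had regions between genes. Axin2, a WNT target, had 518 and 257, and Smyd3, a methyltransferase, 145 and 69. Of the 7 regions with enough reads 0 were lower and 1 was higher, near Axin2 with 7 and 13 reads (log2 ratio 1.74). Hk1 itself had no JUN region classed as between genes.

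Marker genes were counted to set the labelled cell type beside the data, although c-JUN binding near a gene is not its expression. Regions between genes were assigned to 8 of 9 fibroblast markers (57 regions), 2 of 5 cardiomyocyte, 3 of 4 endothelial, 1 of 4 macrophage, and 3 of 4 smooth muscle and pericyte markers. Thy1 had 425 and 196 reads, Kdr 267 and 160, Cdh5 197 and 84, Csf1r 153 and 86, Cspg4 137 and 74, Rgs5 104 and 42, and Ryr2 76 and 35. Markers of other cell types therefore also had regions, and what this says of the cells was not tested. Of fibroblast marker regions with enough reads, 5 were lower and 2 higher of 47. Endothelial markers gave 3 lower and 2 higher of 17, and cardiomyocyte markers 0 and 1 of 7. Smooth muscle and pericyte markers gave 0 and 2 of 4, and macrophage markers 0 and 0 of 2. Among all regions between genes the shares were 7.06% and 4.41%.

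Some genes collected many regions, or many that were past 2-fold. Bmper had the most regions (40), followed by Klf4 (38), Actl7b (37) and Plpp3 (37). Foxp1, a forkhead repressor, had 6 regions 2-fold lower of 14 with enough reads and 0 higher, with 956 reads in TGF and 320 in siHK1 over its 16 regions. Bvht, a non-coding RNA of heart development, had 4 lower of 5, with 250 and 62 reads. Sox11 had 5 lower of 15 and 1 higher. In the other direction, Marcks had 4 higher of 27 and Tnfsf15 4 higher and 1 lower of 11. Of all regions between genes with enough reads, 7.06% were lower and 4.41% higher. These genes were picked for their counts, which are therefore a description.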

How the data were processed

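CUT&Tag reads of 10 libraries were processed by the authors, who called peaks with MACS2, merged the regions of the TGF and siHK1 libraries of each antibody and deposited raw read counts per region, a mark for a peak in each library, and log2 normalized values of each library. The deposited tables also hold fold changes, p-values and calls of the authors' own comparison, which were not used. The study's methods name Bowtie2 and GRCm39, while the submitters' processing notes name BWA 0.7.12 and mm10. Of 30374 transcripts in the c-JUN table, 30096 were found in GENCODE vM21 and all 30096 had its GRCm38 coordinates, so GRCm38 (1-based) was used. A spike-in is named in the methods and none was used here.

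The deposited counts were scaled to equal totals over all listed JUN regions (1 library per condition, so no test was made). The log2 ratio of siHK1 over TGF was taken after adding 0.5 to the raw reads of each library and then scaling. Calls needed 20 scaled reads over both libraries and a 2-fold difference. Intervals are exact 95% Poisson or Clopper-Pearson intervals. Genes are those assigned by the deposited annotation. Named regions were the 10 with the most scaled reads on chromosomes 1 to 19 and X, the 8 lowest and 8 highest ratios among those with at least 50 scaled reads, the region of highest reads of each listed gene (printed from 100 scaled reads) and the 5 largest clusters. Motifs were searched in the central 200 bp and in windows 5000 bp to either side. The regions and lists were chosen with earlier results of these data known. Scaling, pseudocount, filter, fold, window, overlap and cluster gap were varied. Scripts were tested on simulated data and used Python 3.11.15, pandas 2.3.3, NumPy 2.4.6, SciPy 1.17.1 and Matplotlib 3.10.9. The tables labelled NC and the TGF table without a named antibody were not used here. Some listed genes are not reported here.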

Additional observations from a re-analysis of the deposited data

How the results depend on the processing

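No paired analysis was possible because 1 c-JUN library stands for each treatment. Of the regions between genes, 1369 were lower and 855 higher. With no scaling these counts were 8380 and 69, with no filter on low reads 2841 and 1802, with at least 50 scaled reads 387 and 206, and at 1.5-fold 3360 and 2618. With 5 reads added, 386 were lower and 773 higher, so that 33.3% of those past 2-fold were lower, against 61.6% with 0.5 reads and 70.5% when regions with a peak in both libraries were set to a median ratio of 1. With the deposited log2 values 1731 were lower and 578 higher. The 2 other scalings moved the median of all JUN regions by -0.08. The median log2 ratio between genes, -0.05, was -0.13 with either of them, -0.94 with no scaling, -0.033 and 0.10 with 1 and 5 reads added, and 0.025 with at least 50 scaled reads. The share of lower regions with GTCTAGAC, 1.39%, was 0.764% with no scaling, where regions within 2-fold had 0.256%. With at least 50 scaled reads the shares were 1.29% (0.421 to 2.99) and 0.490% (0.369 to 0.638), and their intervals overlapped. Peaks in both libraries, at 50.6%, were at 52.8% for regions of at least 200 bp and 62.2% for those with 20 scaled reads. AP-1 letters, at 28.5%, were at 14.5% in the central 100 bp, 44.7% in 400 bp and 48.7% in whole regions. Leaving out 2 kinds of region was chosen after seeing the data: without regions of another antibody, peaks in both were at 46.3% and AP-1 letters at 30.5%, and without mostly masked windows at 52.3% and 29.7%. With the midpoint rule 2028 regions overlapped NFATC2. The median distance was 18.5 kb to GENCODE starts, and with a gap of 5000 bp 9206 regions lay in clusters. Added reads were scaled with the counts, so they counted for more in siHK1, and their part in these shifts was not tested. For the scalings, the cause was not tested. Depth limits single regions: with medians of 33 and 17 reads, the whole counting interval lay past 2-fold at 64 of the 1369 lower and 27 of the 855 higher regions.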
